A study of Mus musculus with 6 samples.

Results

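The comparison set cultured mouse neural stem cells labelled heterozygous for an Ecrg4 allele against cells labelled wild type. It took in all arrays with these genotype labels, 2 heterozygous and 2 wild-type, which made 4 of the 6 arrays of the study. The remaining 2 arrays carried the homozygous label and entered the fit for the estimate of the spread between arrays. All cells came from C57BL6 brain at P0, around birth, and were grown untreated in DMEM/F12 medium to which bFGF, EGF and heparin had been added. The labels give no other allele or agent. The sources used here do not give how the Ecrg4 allele was altered or whether the 2 arrays of a genotype came from separate animals or cultures. The p-values therefore measure only how far these arrays spread, and that spread may be technical.

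Ecrg4 encodes a small secreted protein that is cut into peptides, and in the brain it is best known from the choroid plexus and from precursor cells that leave the cell cycle. Neural stem cells of the newborn brain divide in culture under epidermal and fibroblast growth factors and can give rise to neurons, astrocytes and oligodendrocytes. An array reads the level of each transcript as the brightness of a probe, so fewer expressing cells and less RNA per cell cannot be told apart.

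The intensities had a median of 30 on every array, and the 95th percentile of 663 olfactory receptor probes, used as the level of background, lay between 50.5 and 57.6. Of 19 tested stem and progenitor cell genes, 17 exceeded that level on all 4 compared arrays, among them Fabp7, a fatty acid binding protein of radial glia, at 46144 and 37400 in wild-type and 37792 and 37790 in heterozygous arrays. All 10 microglial genes lay under it on all 4 arrays, and their summed intensity stayed between 193 and 227. Under background, Cd14, a co-receptor for bacterial lipopolysaccharide, read 6.4 and 5.4 against 17.3 and 17.5 and was called higher (adjusted p = 0.023), and the fractalkine receptor Cx3cr1 read 9.6 and 9.8 against 3.7 and 4.2 and was called lower (adjusted p = 0.0387). Both calls ended when any 1 of the 4 arrays was left out (0.0516 to 0.188). Endothelial genes summed to 181 and 240 in wild-type arrays and to 115 and 99.5 in heterozygous arrays, with 8 of 9 under the background level on all 4. None of the 9 passed. Most of these sums came from Flt1, the 1 member over background, at 113.7 and 170.9 against 57.6 and 50.8 (adjusted p = 0.209). Wild-type array 1 correlated less with heterozygous arrays 1 and 2 (r = 0.983 and 0.980) than wild-type array 2 did (r = 0.990 and 0.987). The correlation between the wild-type arrays across the tested probes was r = 0.989. This lay between the values of wild-type array 2 with the heterozygous arrays. These correlations run across probes, which are not independent replicates.

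Ecrg4 itself did not follow the order of its allele labels. Its intensity was 112.9 and 154.9 where the label read wild type and 345.5 and 373.9 where it read heterozygous, against 1.4 and 1.3 under the homozygous label. Both heterozygous values lay above both wild-type values, a fold of 2.72 (95% interval 1.96 to 3.77), or 1.44 ± 0.19 (SE) on the log2 scale, with an adjusted p of 0.0409 (limma, Benjamini-Hochberg over all probes). Genotype names in all that follows are therefore those of the array labels, and every direction given rests on them. The call ended without wild-type array 1 (log2 1.21, adjusted p = 0.117), heterozygous array 1 (log2 1.5, adjusted p = 0.169) or heterozygous array 2 (log2 1.39, adjusted p = 0.242), and it held without wild-type array 2 (log2 1.67, adjusted p = 0.0476). The sources used here do not give which stretch of the transcript the probe reads or whether it lies within the altered part of the allele. The 3 nearest tested genes on either side of Ecrg4 on chromosome 1 did not pass the threshold. The largest difference among them was that of Uxs1, a UDP-glucuronate decarboxylase, at log2 0.58 (adjusted p = 0.376), while Fhl2 lay at -0.25 and Tpp2 at 0.01.

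Across all 20636 probes with a value on the 4 arrays, 153 passed the threshold of an adjusted p of 0.05, or 0.741%. Of these, 85 were higher in heterozygous arrays (0.412%) and 68 were lower (0.330%). The calls stood for 124 named genes among 14669 tested (0.845%), 68 of them higher (0.464%) and 56 lower (0.382%). Counts of called genes in a list are to be read beside these shares. They are a description, since the lists were chosen with earlier results known. The smallest called difference was 1.0 on the log2 scale after rounding, while the median difference over all tested probes was -0.01. No called probe had overlapping genotypes. The share of all tested probes with separate genotypes was not counted, so separation alone marks no gene as changed. The brighter genotype exceeded background on both arrays for 75 of the 153 called probes, 71 lay under background on all 4 arrays, and the other 7 fell between these classes. Among named genes of the first kind, leaving out predicted names, 32 were higher and 22 lower. In 17 of the 32 the wild-type arrays were both under background, and in 11 of the 22 the heterozygous arrays were, so the true fold of those genes is given as a lower bound, taken against the background level.

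**Figure D1:**
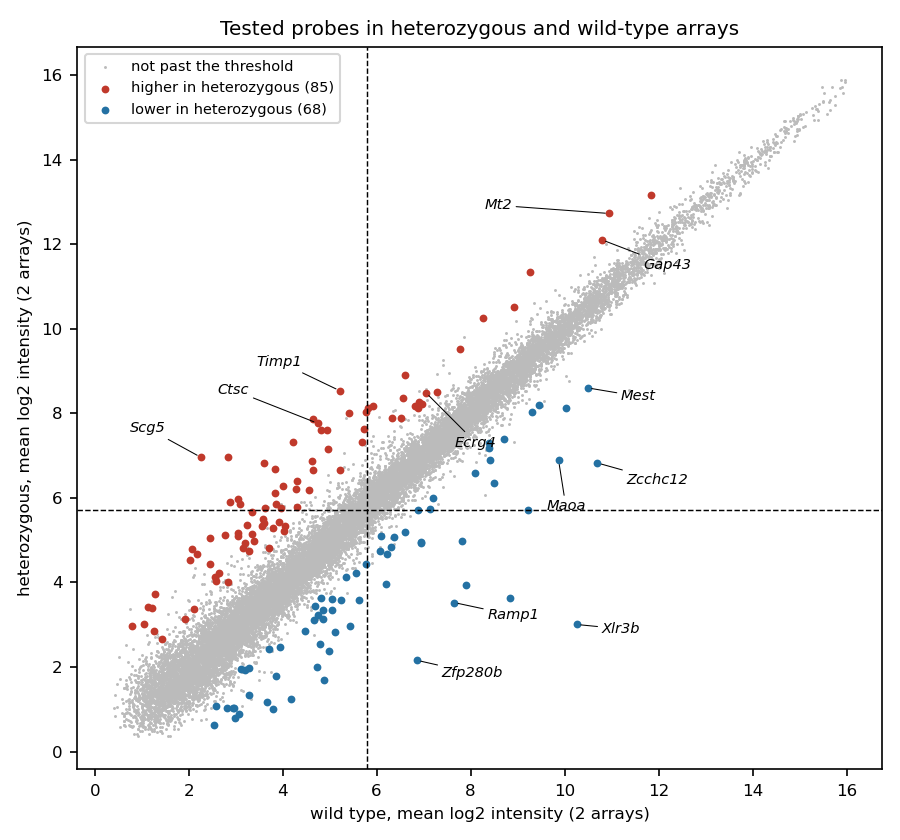
Mean log2 intensity of each tested probe in the 2 wild-type arrays (horizontal axis) and the 2 heterozygous arrays (vertical axis), with probes past the threshold in red (85 higher) and blue (68 lower) and the background level of each genotype as dashed lines. Most called probes lie left of or below a dashed line, and Xlr3b lies farthest from the diagonal.

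The number of calls depended on single arrays. Leaving out wild-type array 1 left 15 calls, leaving out heterozygous array 1 left 29 and leaving out heterozygous array 2 left 5, while leaving out wild-type array 2 raised the count to 266. The homozygous arrays are not part of the contrast, and 1 of them alone adds nothing to the estimate of the spread. Leaving out either is therefore the same as fitting the 4 compared arrays alone, which left 35. All 153 probes kept their direction in each of the 4 fits that left out a compared array. Of the 54 brighter named genes, 6 passed without wild-type array 1, 42 without wild-type array 2, 12 without heterozygous array 1 and 2 without heterozygous array 2. Xlr3b and Zcchc12 were the 2 that passed in all of these fits.

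The list of granins and prohormone processing factors, to which Ecrg4 belongs, held another higher gene. Scg5 encodes 7B2, the partner protein of the prohormone convertase Pcsk2. Its intensity was 4.4 and 5.2 in wild-type arrays and 118.0 and 131.5 in heterozygous arrays, with 3.4 and 1.9 in homozygous arrays. The wild-type arrays were near the lowest values of the table and the heterozygous arrays were clearly apart from them, a log2 difference of 4.70 ± 0.29 (adjusted p = 0.00398), or at least 2.25-fold over background. Of 15 tested genes of the list, Scg5 and Ecrg4 rose, against 0.464% of all named genes. None fell, and the median difference was -0.31. Cpe, the carboxypeptidase that trims prohormone fragments, read 5774 and 7480 in wild-type against 8854 and 8480 in heterozygous arrays and did not pass (log2 0.40, adjusted p = 0.428). Scg3, a secretory granule protein, differed by -0.53 and did not pass either (adjusted p = 0.389). The call of Scg5 ended without wild-type array 1 (adjusted p = 0.055) or heterozygous array 2 (adjusted p = 0.0567).

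Genes of matrix breakdown and of the lysosome included several of the larger increases. Timp1, the secreted inhibitor of matrix metalloproteinases, read 29.8 and 46.3 in wild-type arrays and 458.1 and 300.2 in heterozygous arrays. The wild-type arrays lay under background and the heterozygous arrays far over it, a log2 difference of 3.32 ± 0.31 (adjusted p = 0.0147), or at least 6.71-fold. The homozygous arrays, at 23.8 and 31.7, overlapped the wild-type arrays. Mmp14, a matrix metalloproteinase anchored in the cell membrane, read 13.5 and 15.1 against 62.2 and 78.5 (log2 2.29 ± 0.20, adjusted p = 0.0112, at least 1.26-fold). These 2 of 22 tested matrix proteases and inhibitors rose, against 0.464% of all named genes. None fell, and the list median was 0.05. The most abundant of the others, the serine protease inhibitor Serpine2, read 6966 and 7394 against 6779 and 7786. Timp1 and Mmp14 lost their calls without wild-type array 1 (adjusted p = 0.0821 for both), heterozygous array 1 (0.0767 and 0.0552) or heterozygous array 2 (0.0675 and 0.093).

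Among lysosomal proteases, Ctsc, a dipeptidyl peptidase that activates granule serine proteases, read 27.5 and 26.2 in wild-type arrays and 227.8 and 207.4 in heterozygous arrays. Its homozygous values, 101.1 and 119.2, lay between those of the other genotypes. The log2 difference between heterozygous and wild type was 3.02 ± 0.16 (adjusted p = 0.00378), or at least 3.93-fold. Ctsz, a lysosomal carboxypeptidase, read 38.7 and 47.2 against 227.7 and 292.3, with 116.3 and 80.6 in homozygous arrays (log2 2.59 ± 0.24, adjusted p = 0.0147, at least 4.67-fold). In both genes the homozygous pair lay below the heterozygous pair. Ctsh, a lysosomal aminopeptidase, showed a large difference that missed the threshold, at 55.5 and 78.9 against 277.6 and 212.0 (log2 1.87 ± 0.28, adjusted p = 0.0527). Of the 20 tested lysosomal genes, Ctsc and Ctsz rose, against 0.464% of all named genes, and none fell. Of the same 20, 16 lay above 0 and 4 below, and the median was 0.31, against 0.01 over all named genes. Of the abundant members, Lamp1, a lysosomal membrane protein, differed by 0.29 and the aspartic protease Ctsd by 0.51, and neither passed. Leaving out each compared array in turn gave list medians between 0.17 and 0.41. Without heterozygous array 2 the adjusted p was 0.054 for Ctsc and 0.107 for Ctsz, and the call of Ctsz also ended without wild-type array 1 (0.103) and without heterozygous array 1 (0.0754).

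In the list of 27 peroxisomal and fatty acid oxidation genes, Phyh rose, no other gene passed and the median was 0.10. Phyh, the peroxisomal hydroxylase that starts the breakdown of phytanic acid, read 26.8 and 29.9 in wild-type arrays and 185.1 and 202.7 in heterozygous arrays, with 26.4 and 18.6 in homozygous arrays. Only the heterozygous arrays were over background, and the log2 difference was 2.77 ± 0.21 (adjusted p = 0.00741), or at least 3.5-fold. Ilvbl, which is not in the list, is an endoplasmic reticulum lyase that cleaves hydroxylated fatty acyl-CoA. It read 22.6 and 27.7 against 227.7 and 240.8, with 10.1 and 11.8 in homozygous arrays (log2 3.23 ± 0.17, adjusted p = 0.00378, at least 4.24-fold). Of called genes outside the list, Bdh1, the mitochondrial dehydrogenase of the ketone body 3-hydroxybutyrate, read 118.2 and 121.7 against 321.1 and 295.9 (log2 1.36). Aspa, which splits N-acetylaspartate, was higher by log2 1.64 (at least 1.33-fold), and the outer mitochondrial membrane protein Tspo read 35.7 and 38.9 against 108.1 and 94.8 (log2 1.44, at least 1.83-fold). Within the list, Acadm, the medium-chain acyl-CoA dehydrogenase, read 1497 and 1690 against 2203 and 2066 without passing (adjusted p = 0.323). Ilvbl kept its call without any 1 of the compared arrays other than heterozygous array 2 (adjusted p = 0.054), and Phyh, Aspa and Tspo kept theirs only without wild-type array 2 (0.0461, 0.0476 and 0.0478). Bdh1 passed in none of these fits (0.0519 to 0.176).

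The metallothioneins, small proteins that bind zinc and copper, went in different directions. They were grouped as a list after their values were seen. Mt2 read 1800 and 2179 in wild-type arrays and 6754 and 6809 in heterozygous arrays, with 3156 and 1968 in homozygous arrays. Mt3, the form typical of brain, read 775.5 and 625.4 in wild-type, 296.6 and 290.9 in heterozygous and 516.6 and 447.4 in homozygous arrays. Heterozygous arrays were thus highest for Mt2 and lowest for Mt3, with log2 differences of 1.78 ± 0.25 (adjusted p = 0.0475) and -1.25 ± 0.17 (adjusted p = 0.0469). Mt1, the most abundant of the 3, read 12414 and 14872 against 13947 and 16382 and did not pass (log2 0.15, adjusted p = 0.746). Mt1 and Mt2 are alike in sequence, and whether their probes read each other's transcripts was not tested. The call of Mt2 ended when any 1 of the compared arrays was left out (adjusted p of 0.233 and 0.0665 for the wild-type arrays, 0.182 and 0.247 for the heterozygous arrays). That of Mt3 held only without wild-type array 2 (0.0481, against 0.166, 0.182 and 0.253).

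The promoters of the 2 metallothionein genes that moved apart are shown to compare their content of the metal response element, the DNA motif read by the zinc sensor Mtf1. Both were picked after their values were seen, and the promoter of Mt1, which did not pass, is not shown. Each sequence is the 250 bases before the start of the gene on the plus strand, from RefSeq on assembly GRCm38.p6, at chr8:94172368-94172617 for Mt2 and chr8:94152357-94152606 for Mt3. Capitals mark matches to TGCGCNC or TGCACNC, the core of the element, on either strand.
Mt2: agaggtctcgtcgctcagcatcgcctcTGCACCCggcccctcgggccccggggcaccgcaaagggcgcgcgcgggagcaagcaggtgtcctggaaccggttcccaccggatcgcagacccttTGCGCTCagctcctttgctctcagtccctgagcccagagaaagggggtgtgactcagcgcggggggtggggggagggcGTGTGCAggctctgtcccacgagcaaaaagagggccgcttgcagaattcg
Mt3: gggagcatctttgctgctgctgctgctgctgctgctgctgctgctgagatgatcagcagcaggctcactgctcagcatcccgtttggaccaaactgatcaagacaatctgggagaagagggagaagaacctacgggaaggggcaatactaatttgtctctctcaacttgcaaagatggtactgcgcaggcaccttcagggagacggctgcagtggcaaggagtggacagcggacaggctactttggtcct
The Mt2 promoter held 3 matches and the Mt3 promoter 0, which says only that these letters are not in that window. Of 27025 mouse promoters of the same length, 5749 (21.3%) held at least 1 match and 345 (1.28%) held 3 or more. Among all called named genes with a listed promoter, 11 of 49 higher genes (22.4%) and 17 of 41 lower genes (41.5%) held a match, given as a description without a test.

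Other genes higher in heterozygous arrays, which belong to no list tested here, included Ifitm3, Ly6e, Gng2, Chl1 and Skap2. Ifitm3, an interferon-inducible membrane protein that restricts virus entry, read 262.3 and 364.4 in wild-type, 1151 and 1314 in heterozygous and 695.0 and 690.9 in homozygous arrays (log2 1.99 ± 0.20, adjusted p = 0.0169). Ly6e, another interferon-inducible surface protein, read 21.6 and 28.2 against 119.5 and 116.2 (log2 2.26 ± 0.19, adjusted p = 0.00981, at least 2.13-fold). In both genes the heterozygous arrays were the highest of the 3 genotypes. Gng2, a subunit of heterotrimeric G proteins, read 59.6 and 61.4 in wild-type, 248.7 and 335.7 in heterozygous and 8.7 and 8.3 in homozygous arrays, so that the 3 genotypes were fully separate (log2 2.26 ± 0.19, adjusted p = 0.00981). Chl1, an adhesion molecule of the L1 family, had the same order, at 29.8 and 33.1, 126.0 and 160.8, and 8.7 and 10.3 (log2 2.18 ± 0.19, adjusted p = 0.0112, at least 2.58-fold). The adaptor protein Skap2, a partner of Src kinases, was brighter, at 468.0 and 508.6 against 1466 and 1461, with 311.5 and 257.5 in homozygous arrays (log2 1.59 ± 0.16, adjusted p = 0.018). Of these 5 genes, Gng2 passed without heterozygous array 1 (adjusted p = 0.0355) and all passed without wild-type array 2, while none passed without wild-type array 1 (0.0591 to 0.103) or heterozygous array 2 (0.0675 to 0.142).

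Genes with higher values in both mutant labels included Igfbp4, a secreted binding protein of insulin-like growth factors, at 73.4 and 87.3 in wild-type, 231.7 and 242.8 in heterozygous and 303.0 and 310.6 in homozygous arrays (log2 heterozygous minus wild type 1.57 ± 0.16, adjusted p = 0.0166). Gap43, a growth cone protein, read 1758 and 1779, then 3782 and 5139, and 4809 and 4796 (log2 1.32 ± 0.19, adjusted p = 0.0478). For Bok, a pro-apoptotic relative of Bcl-2, the values were 124.9 and 125.3, then 299.7 and 294.4, and 290.6 and 338.3 (log2 1.25). Ddit4l, an inhibitor of mTOR signalling, rose from 8.8 and 6.1 to 62.8 and 56.6, at least 1.08-fold over background, and read 193.4 and 186.6 in homozygous arrays. In all 4 genes both mutant pairs were above both wild-type arrays, and the comparisons share those wild-type arrays. Pak3, an X-linked kinase of the p21-activated family, read 80.4 and 111.4 against 387.4 and 283.7 (log2 1.81 ± 0.23, adjusted p = 0.0337). The call of Gap43 ended without any 1 of the compared arrays (adjusted p of 0.208, 0.0702, 0.0992 and 0.213), those of Igfbp4 and Pak3 in all such fits but the one without wild-type array 2, and that of Bok in all 4 (0.0537 to 0.194). That of Ddit4l ended without heterozygous array 1 (0.0527) or 2 (0.0651).

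A probe of Tuba1b, an alpha tubulin, rose from 19.1 and 18.3 to 168.5 and 151.3, whereas a second probe of the same gene read 37576 and 34113 against 33876 and 38239 (log2 0.01, adjusted p = 0.985). The probes of this gene disagreed, and the far brighter one did not pass. Tubulin genes are near-identical copies, so the source of the dim probe's signal is uncertain. Its call held only without wild-type array 2 (adjusted p = 0.0478, against 0.0767 to 0.0921).

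The other named genes higher in heterozygous arrays and over background there were Slc7a4, Mamdc2, Ociad2, Tmem141, Prelid2, Ccdc80, Tcim, Lrrn3 and Hdhd3. Slc7a4, of the family of cationic amino acid transporters, read 7.6 and 9.1 against 59.3 and 67.5, with 46.3 and 35.6 in homozygous arrays (at least 1.14-fold). Mamdc2, a secreted matrix protein, read 13.8 and 14.7 against 91.1 and 114.2, with 13.6 and 14.6 in homozygous arrays (at least 1.85-fold). Ccdc80, another secreted matrix protein, read 20.3 and 30.6 against 82.8 and 124.6 (at least 1.84-fold). In these 3 genes both wild-type arrays were under background and both heterozygous arrays over it. Ociad2 read 39.7 and 80.5 against 293.4 and 266.2 (log2 2.31 ± 0.32, adjusted p = 0.0474), and Prelid2 read 45.9 and 66.0 against 225.5 and 304.9 (log2 2.25 ± 0.24, adjusted p = 0.0207). Lrrn3, a leucine-rich repeat membrane protein of neurons, read 111.7 and 122.7 against 306.8 and 256.0 (log2 1.26 ± 0.17, adjusted p = 0.0398). Tmem141 was at least 1.4-fold higher, and Tcim and Hdhd3 differed by log2 1.64 and 1.21. Slc7a4 and Mamdc2 lost their calls without wild-type array 1 (adjusted p = 0.0529 and 0.0511) or heterozygous array 2 (0.0651 and 0.054), Lrrn3 in all 4 fits that left out a compared array (0.0577 to 0.181), and the other 6 in all but the one without wild-type array 2.

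**Figure D2:**
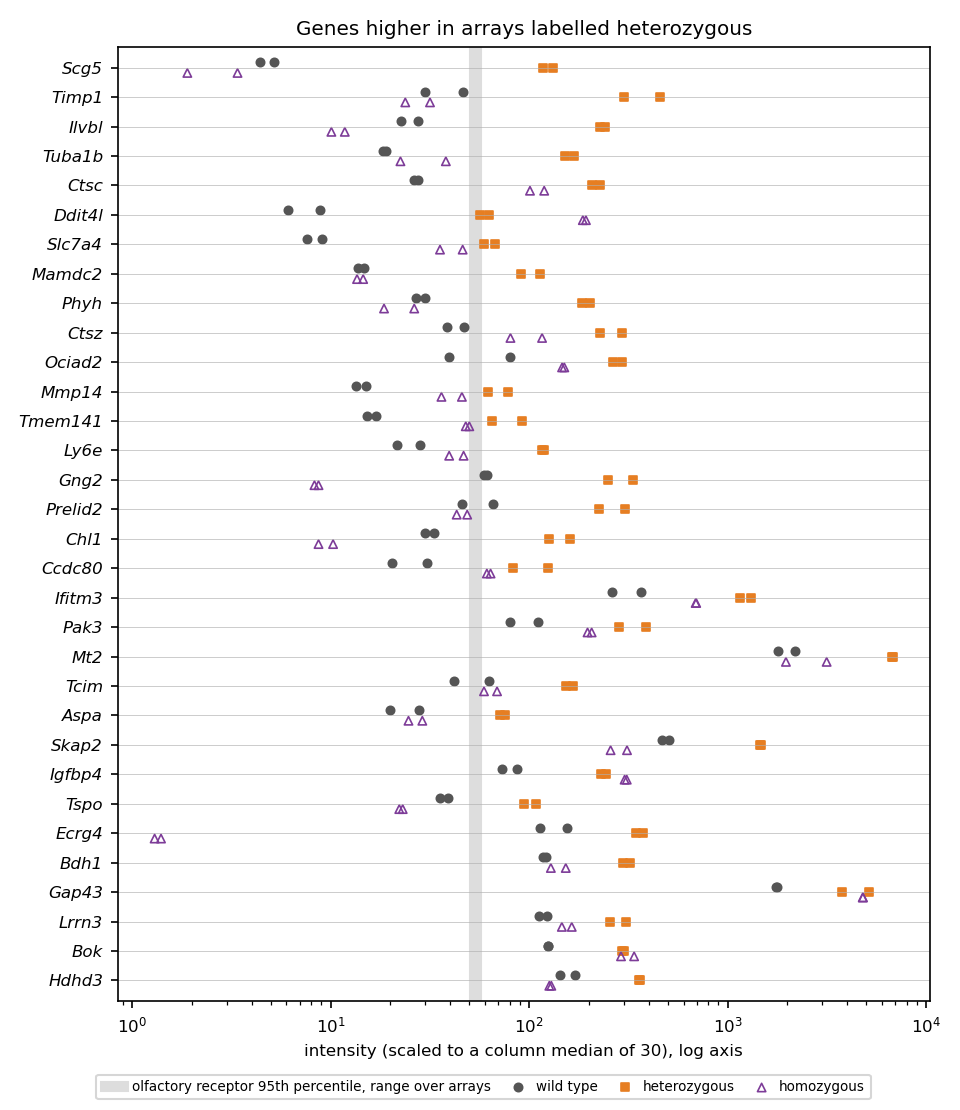
Intensity (log axis) of the 32 named genes higher in heterozygous arrays and over background there, with each point 1 array, filled circles for wild type, squares for heterozygous, open triangles for homozygous and a grey band for the range of the background level over arrays. By the rule that picked the genes, the squares lie right of the filled circles in every row, while the triangles lie on either side of them.

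Xlr3b, on the X chromosome, had the largest bound among the lower genes. It belongs to the X-linked lymphocyte-regulated family, whose members in mouse brain include imprinted genes, expressed according to the parent of origin. Its intensity was 1192 and 1254 in wild-type arrays and 10.4 and 6.2 in heterozygous arrays, with 192.1 and 144.7 in homozygous arrays. The 3 genotypes were separate, with the heterozygous arrays lowest and under background, at a log2 difference of -7.25 ± 0.28 (adjusted p = 0.00279), or at least 23.4-fold lower. Xlr3b kept its call in each fit that left out 1 compared array, with log2 differences of -7.62 to -6.88. The related Xlr4b read 64.5 and 70.1 against 27.1 and 26.8, with 43.0 and 40.5 in homozygous arrays (log2 -1.32 ± 0.14, adjusted p = 0.021, at least 1.28-fold lower). Heterozygous arrays were again lowest and homozygous arrays between the others, and Xlr4b kept its call only without wild-type array 2 (0.048, against 0.0821, 0.134 and 0.176). These were the 2 tested genes of the family. The family holds near-identical copies, so which copy a probe reads is uncertain.

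The promoters of the 2 genes, which both fell, are shown to compare them over the 250 bases before the start, on the plus strand of GRCm38.p6 as RefSeq lists them, at chrX:73191929-73192178 for Xlr3b and chrX:73214083-73214332 for Xlr4b. Capitals again mark matches to TGCGCNC or TGCACNC on either strand.
Xlr3b: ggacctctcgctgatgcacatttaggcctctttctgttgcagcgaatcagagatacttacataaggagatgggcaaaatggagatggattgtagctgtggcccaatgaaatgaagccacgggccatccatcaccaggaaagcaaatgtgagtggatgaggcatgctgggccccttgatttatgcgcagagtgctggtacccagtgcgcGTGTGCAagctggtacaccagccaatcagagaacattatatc
Xlr4b: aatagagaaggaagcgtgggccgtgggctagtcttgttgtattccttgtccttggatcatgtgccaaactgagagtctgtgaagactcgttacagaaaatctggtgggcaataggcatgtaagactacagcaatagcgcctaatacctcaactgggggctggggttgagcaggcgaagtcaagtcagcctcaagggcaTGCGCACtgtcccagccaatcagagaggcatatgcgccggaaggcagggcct
In a global alignment, 150 of 300 columns were identical (50%), close to the 48.3% between the Mt2 and Mt3 promoters, and each sequence held 1 match to the element.

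Other genes of the X chromosome also fell. Zcchc12, a transcriptional coactivator of bone morphogenetic protein signalling, read 1757 and 1566 in wild-type arrays and 134.2 and 95.9 in heterozygous arrays, with 1401 and 1242 in homozygous arrays. The heterozygous arrays alone were low, with a log2 difference of -3.87 ± 0.21 (adjusted p = 0.00378) that passed in each fit without 1 compared array. Maoa, the mitochondrial oxidase that degrades serotonin and noradrenaline, read 807.0 and 1089 against 152.1 and 91.9, and 807.1 and 863.8 in homozygous arrays (log2 -2.99 ± 0.28, adjusted p = 0.0147). Again only the heterozygous pair was low. Map7d2, a microtubule-binding protein, read 77.7 and 68.8 against 17.1 and 14.3, with 74.6 and 84.7 in homozygous arrays (log2 -2.23 ± 0.17, at least 1.4-fold lower). Of 487 tested genes on the X chromosome 7 were called (1.44%, against 0.845% of all named genes), namely the 5 lower genes Xlr3b, Xlr4b, Zcchc12, Maoa and Map7d2 and the 2 higher genes Timp1 and Pak3, and the chromosome's median was 0.03. The call of Maoa ended without wild-type array 1 (adjusted p = 0.0797) and without heterozygous array 2 (0.07), and Map7d2 in all fits but the one without wild-type array 2.

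Of 16 tested neuronal markers, Ina fell and Gap43 rose, and Rab3b, Gria2 and Car8, which are outside that list, also fell. Rab3b, a small GTPase of secretory and synaptic vesicles, read 383.4 and 341.0 in wild-type, 80.3 and 84.4 in heterozygous and 567.0 and 559.8 in homozygous arrays (log2 -2.13 ± 0.15, adjusted p = 0.00538). Gria2, a subunit of AMPA-type glutamate receptors, read 150.4 and 130.9, then 57.4 and 49.6, and 208.3 and 163.9 (log2 -1.39 ± 0.19, adjusted p = 0.0409). In both genes the heterozygous arrays were lowest and the homozygous arrays highest. Among 21 tested glutamate receptor genes, a list made after the values were seen, Gria2, Grik2, Grin1 and Grm3 fell and none rose. Over all named genes 0.382% fell. The list median was -0.03, and 18 of the 21 were under background on all 4 arrays. Ina, the neuronal intermediate filament alpha-internexin, read 70.2 and 65.5 against 33.9 and 34.1, and 137.1 and 130.3 in homozygous arrays (log2 -1.0 ± 0.14, adjusted p = 0.0482, at least 1.3-fold lower). Of the neuronal markers, 13 lay under background on all 4 arrays, among them Snap25, a synaptic fusion protein, at 35.1 and 36.4 against 32.9 and 33.2. Car8, a carbonic anhydrase relative without catalytic activity that binds the inositol trisphosphate receptor, read 277.9 and 272.1 against 86.6 and 107.5 (log2 -1.51). Gria2, Ina and Car8 lost their calls without any 1 of the compared arrays (adjusted p of 0.0547 to 0.267), and Rab3b in all such fits but the one without wild-type array 2.

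Forebrain patterning factors included 3 lower genes. Dmrta2, a zinc finger transcription factor of cortical progenitors, read 102.9 and 147.4 in wild-type, 32.4 and 28.4 in heterozygous and 301.2 and 282.1 in homozygous arrays (log2 -2.02 ± 0.21, adjusted p = 0.0185, at least 2.35-fold lower). The homeobox factors of interneuron precursors Dlx1 (adjusted p = 0.0157) and Dlx2 (adjusted p = 0.0284) passed while under background on all 4 arrays. Dlx1 read 42.6 and 56.7 against 13.3 and 10.8, and Dlx2 read 8.8 and 8.5 against 3.9 and 3.9. These 3 of 17 tested factors fell, against 0.382% of all named genes, and none rose. The list median was -0.18, and 13 lay under background on all 4 arrays. Lhx6, a brighter interneuron factor, read 347.9 and 307.8 against 296.2 and 261.8 and did not pass (adjusted p = 0.539). Among 21 Hox genes, which pattern the hindbrain and spinal cord, Hoxa5 rose from 13.5 and 7.7 to 46.2 and 55.2, with 3.9 and 3.2 in homozygous arrays (adjusted p = 0.0314), and exceeded background on heterozygous array 2 only. The other 20 did not pass, and the list median was -0.04. The calls of Dmrta2, Dlx1, Dlx2 and Hoxa5 held without wild-type array 2 (adjusted p of 0.0476 to 0.0494) and ended without any other compared array (0.0511 to 0.204).

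Mest, an imprinted hydrolase gene expressed from the paternal allele, read 1381 and 1493 in wild-type, 415.4 and 363.5 in heterozygous and 2484 and 2600 in homozygous arrays. The heterozygous arrays were lowest, with a log2 difference of -1.89 ± 0.15 (adjusted p = 0.00981). Mest was the 1 call among the 23 tested genes of the list of imprinted genes, which does not hold the Xlr genes. Acta2, smooth muscle actin and a marker of mural cells and myofibroblasts, read 1230 and 894.8 against 277.5 and 284.6, with 88.0 and 118.5 in homozygous arrays (log2 -1.90 ± 0.23, adjusted p = 0.0273). Of 18 tested fibroblast, meningeal and mural genes, Acta2 fell, Timp1 rose and 12 lay under background on all 4 arrays. The list summed to 1662 and 1487 in wild-type and to 1344 and 1246 in heterozygous arrays, and its part in these results was not tested. Neil3, a DNA glycosylase of dividing cells, read 121.3 and 124.8 against 35.8 and 26.6, with 31.7 and 31.2 in homozygous arrays (log2 -2.0 ± 0.18, at least 2.35-fold lower). The homozygous values of Neil3 were close to the heterozygous ones, as were those of Paip1, a partner of the poly(A)-binding protein, at 328.1 and 356.2, then 111.7 and 125.0, and 109.6 and 108.2 (log2 -1.53 ± 0.15). Mest, Acta2 and Paip1 kept their calls only without wild-type array 2 (adjusted p of 0.0466, 0.0478 and 0.0478), and Neil3 also without heterozygous array 1 (0.044).

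Ramp1, which pairs with the calcitonin receptor-like receptor to bind the peptide CGRP, read 150.4 and 266.7 in wild-type arrays, 13.1 and 10.1 in heterozygous arrays and 31.6 and 26.8 in homozygous arrays (log2 -4.12 ± 0.30, at least 3.83-fold lower). Zfp280b, a zinc finger protein, read 141.4 and 94.4, then 5.7 and 3.5, and 6.2 and 5.1 (log2 -4.69 ± 0.30, at least 2.21-fold lower). Both genes were under background in all 4 mutant arrays and over it in both wild-type arrays. A second probe of Uck2, a uridine-cytidine kinase, disagreed with the called one: the latter differed by -1.20, the former by -0.12 (adjusted p = 0.749). Ramp1 and Zfp280b lost their calls without heterozygous array 2 (adjusted p = 0.0675 and 0.054), and Zfp280b also without wild-type array 1 (0.0527).

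The other named lower genes over background in wild type were Npepl1, an aminopeptidase-like protein, at 337.6 and 334.7 against 151.3 and 140.4 (log2 -1.21 ± 0.14, adjusted p = 0.0273), and Rusc2, Bmerb1 and Gypc. Rusc2 was at least 1.57-fold lower, Bmerb1 at least 1.42-fold and Gypc, glycophorin C of the membrane skeleton, at least 1.5-fold. In all 4 genes the homozygous arrays lay above the heterozygous ones. All 4 calls ended when any 1 of the compared arrays was left out (adjusted p of 0.0516 to 0.247).

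**Figure D3:**
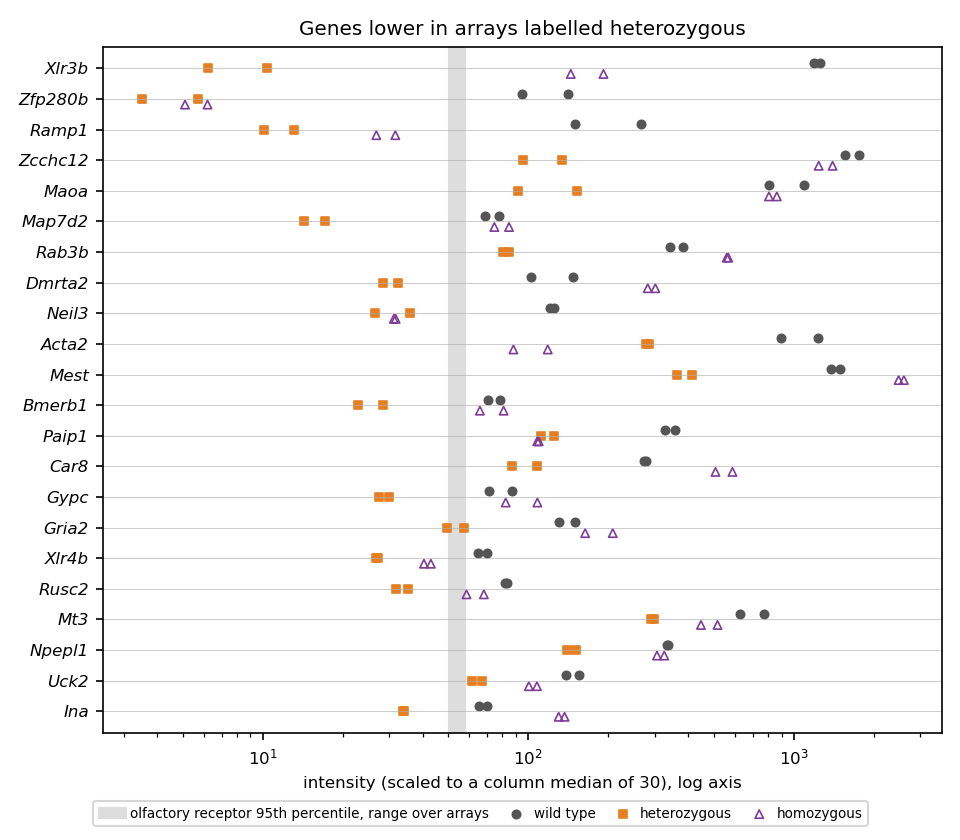
Intensity (log axis) of the 22 named genes lower in heterozygous arrays and over background in wild type, drawn as in the plot of higher genes. By the rule that picked the genes, the squares lie left of the filled circles in every row. The largest gap is in Xlr3b, and the triangles of Zcchc12 and Maoa lie beside the filled circles.

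The lists of cell cycle, hypoxia and NF-kB genes had no call. Neither did the list of X inactivation and Y-linked genes, of which 6 of 13 were tested, with Kdm5d the only Y-linked one. The sex of the cultures and the state of X inactivation were not tested. All 28 tested cell cycle and mitosis genes were over background on all 4 arrays, and none passed, with differences between -0.67 and 0.44 and a median of 0.09. Ccnd2, a G1 cyclin, lay lowest among them, at 5818 and 6042 against 3731 and 3709 (adjusted p = 0.141), while the replication clamp Pcna read 10162 and 10063 against 10364 and 11939. None of the 28 hypoxia and glycolysis genes passed (median 0.10), nor any of the 20 NF-kB targets and chemokines (median -0.07). Ccl2, a monocyte chemokine of the latter list, came closest, at 374.1 and 264.3 against 127.9 and 129.4 (log2 -1.29 ± 0.20, adjusted p = 0.0623). In the 22 p53 and senescence genes, Igfbp4 was the 1 call, and Cdkn1a, the cell cycle inhibitor p21, read 690.4 and 1052 against 878.4 and 733.6. The sign of the hypoxia list's median rested on which wild-type array was kept, at -0.23 when array 1 was left out and 0.37 when array 2 was. Missing the threshold with 2 arrays per genotype does not show that these genes were alike in both.

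Markers of the lineages that stem cells give rise to were mostly without calls. Of 19 tested astrocyte genes none passed, 11 lay above 0 and 8 below, and the median was 0.16. The gap junction protein Gja1 read 1361 and 1860 against 2917 and 2925 (log2 0.88, adjusted p = 0.148) and the lipid carrier Apoe 8216 and 10664 against 15637 and 14367 (log2 0.68, adjusted p = 0.382). Neither passed. Aldoc differed in the other direction and did not pass either, at 8372 and 8891 against 5614 and 5599 (log2 -0.62, adjusted p = 0.185). The astrocyte list summed to 27027 and 31665 in wild-type and 36171 and 35727 in heterozygous arrays, and its median was 0.61 without wild-type array 2. Of 15 oligodendrocyte lineage genes, Ugt8a, the enzyme that makes galactocerebroside, fell from 46.9 and 30.7 to 13.0 and 11 (adjusted p = 0.0478), all under background, a call that ended without any compared array other than wild-type array 2 (0.126 to 0.267). The lineage factors Olig1, at 6806 and 6933 against 7554 and 8680, and Olig2, at 2829 and 3203 against 3441 and 4183, did not pass. None of 13 ependymal and choroid plexus genes passed, the setting in which Ecrg4 is best known, and 9 of them lay under background on all 4 arrays. Foxj1, the master factor of motile cilia, read 171.6 and 155.1 against 176.9 and 170.7.

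**Figure D4:**
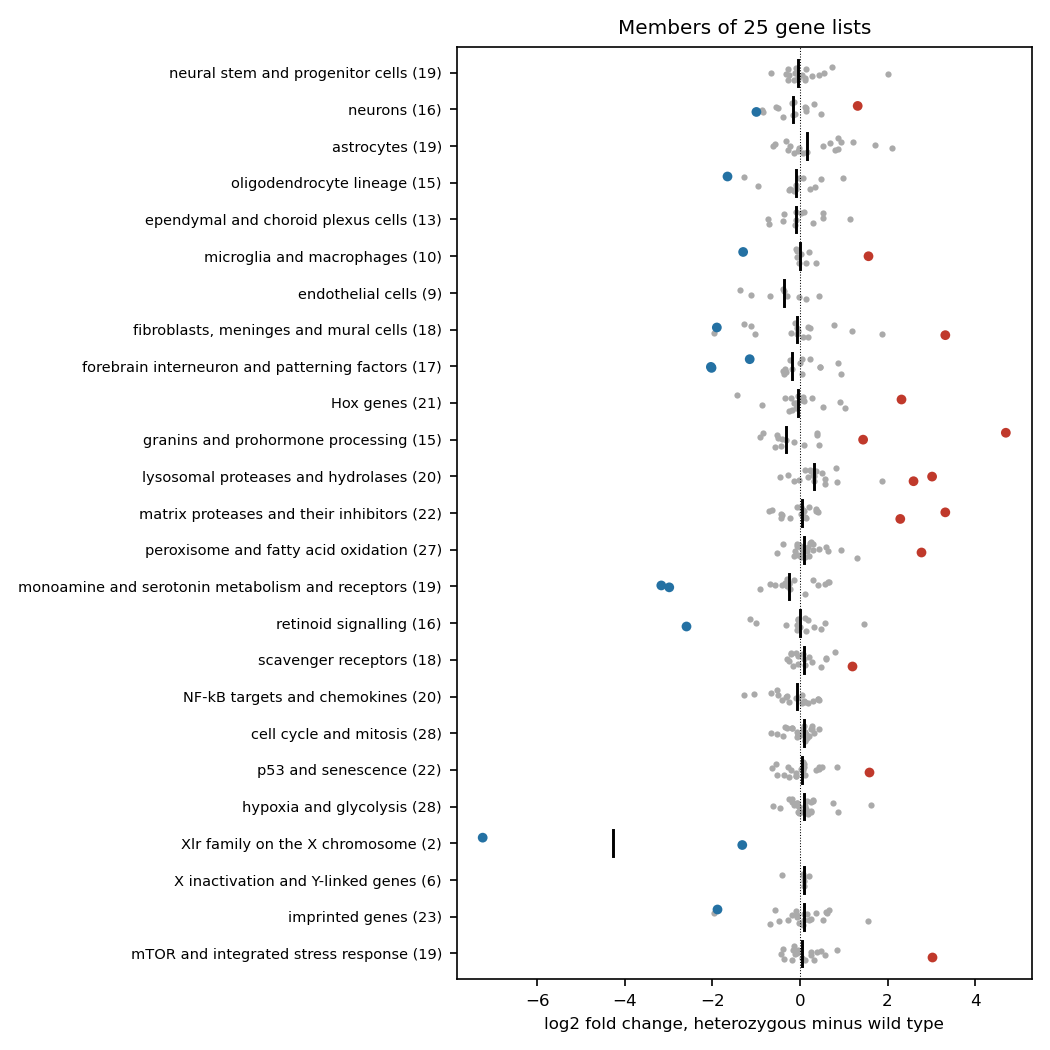
Log2 difference, heterozygous minus wild type, of each tested gene in the 25 lists (tested genes in parentheses), with called genes in red (higher) or blue (lower), other genes in grey and a black bar at the list median. The medians lie between -0.37 and 0.31 in every list other than the Xlr family, which holds 2 genes, and the calls are scattered over single members.

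For the 71 called probes under background on all 4 arrays the size of a fold has little meaning, and intensities are given without one. Among the lower ones were Htr5b, a serotonin receptor, at 25.9 and 33.0 against 4.4 and 2.4, and Lrfn2, a synaptic adhesion protein, at 20.8 and 15.7 against 1.8 and 3.1. Nptx2, a neuronal pentraxin, read 29.6 and 23.6 against 5.3 and 3.0, and Rxrg, a retinoid X receptor, 25.7 and 38.6 against 6.1 and 4.4. Among the higher ones, Emb, a chaperone of monocarboxylate transporters, read 3.3 and 5.4 against 29.1 and 25.9, and Fah, the last enzyme of tyrosine breakdown, 5.8 and 8.0 against 36.2 and 33.7. Casp8, the initiator caspase of death receptors, read 4.2 and 4.0 against 23.3 and 23.3, and Cd36, a scavenger receptor for fatty acids, read 16.7 and 15.9 against 39.1 and 35.3. None of these 8 probes reached background, and each lost its call without heterozygous array 2. Of the protocadherin beta genes, clustered adhesion genes of neurons on chromosome 18 that were listed after their values were seen, 4 of 18 tested genes fell and none rose. Over all named genes 0.382% fell. Pcdhb5 read 29.0 and 40.9 against 6.2 and 8.2, Pcdhb3 22.1 and 34.8 against 5.4 and 6.3, Pcdhb4 12.3 and 17.1 against 4.0 and 3.0, and Pcdhb2 7.3 and 8.6 against 1.9 and 1.6. Without heterozygous array 2 none of the 4 passed (adjusted p of 0.0821 to 0.177). The list median was -0.41, 13 of 18 lay below 0 and 17 of 18 were under background. Pcdhb19, the 1 member over background, read 144.2 and 149.4 against 157.0 and 142.8. Chromosome 18 had 8 calls among 365 tested genes (2.19%, against 0.845% of all named genes), and 4 of the 8 are these protocadherins, picked out after their values were seen.

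Some genes over background on all 4 arrays differed by as much as called ones without passing. Tagln2, an actin-binding protein, read 337.9 and 161.4 in wild-type and 1127 and 707.6 in heterozygous arrays (log2 1.93, adjusted p = 0.126). Ndrg2, an astrocyte and growth-arrest gene, read 136.1 and 215.4 against 669.2 and 471.9 (log2 1.71 ± 0.44, adjusted p = 0.211). Stmn3, a regulator of microtubules in neurons, read 626.9 and 376.8 against 191.0 and 135.0 (log2 -1.60, adjusted p = 0.108), and the transcription factor Klf4 read 757.1 and 748.7 against 282.9 and 345.3 (log2 -1.27, adjusted p = 0.172). Separate genotypes were required for a gene to be taken here, and none of the 4 is counted among the changed genes.

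**Figure D5:**
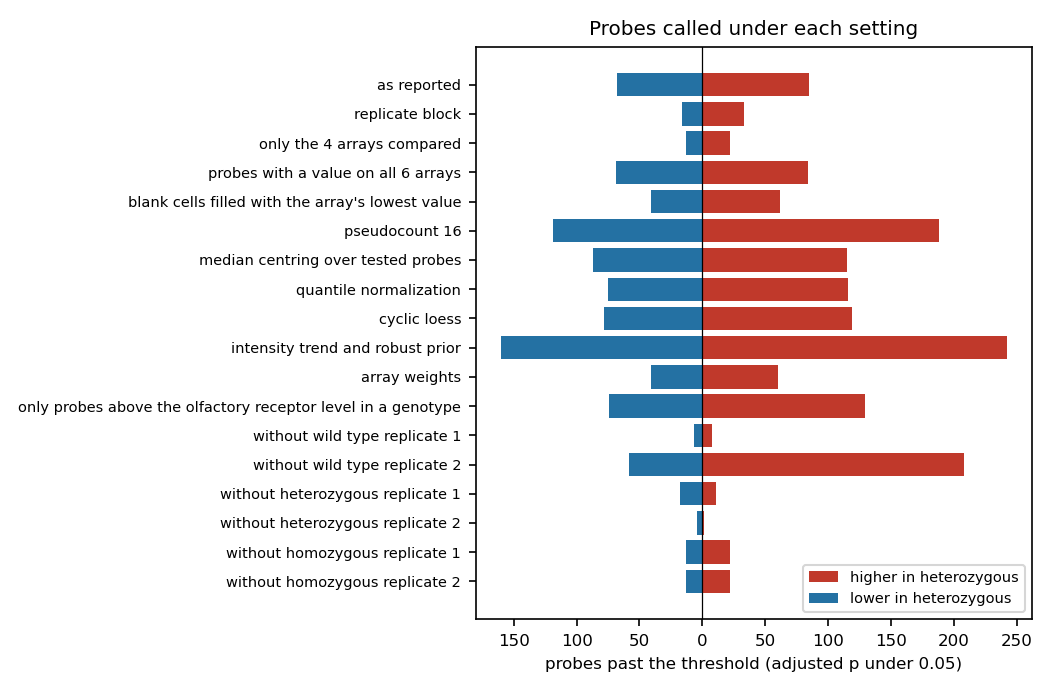
Number of probes past the threshold under each way of fitting, higher in heterozygous arrays to the right (red) and lower to the left (blue). The reported fit gave 85 and 68, and the smallest count, 5, came without heterozygous array 2.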

How the data were processed

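Total RNA of 6 arrays was read on a 1-colour Toray array. Per the stated protocol, it was extracted with an RNeasy kit and amplified as amino allyl aRNA with coupled dye, while the label field reads biotin. The sources used here do not give the scanner or the background correction. The authors deposited linear intensity values with a median of 30 on each array, with no stated rule for blank cells. Scanner files were not used here, and precision is limited by how few arrays there were.

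Values were log2-transformed without a pseudocount. A model with 3 genotypes was fitted to the 6 arrays with limma 3.58.1 in R 4.3.3 (two-sided moderated tests, Benjamini-Hochberg over 20636 probes with a value on all 4 compared arrays, threshold 0.05). The fit had 3 residual degrees of freedom, 2 for 202 probes blank on a homozygous array, and a prior worth 3.23. Errors are standard errors of the fit, and intervals are 95%. Of 23466 probes, 16625 had 1 gene symbol, of which 3943 were updated through RefSeq, and 6841 are unnamed here. Bounds set a genotype under background to the olfactory receptor 95th percentile, and they carry no error. Against vomeronasal, taste receptor and keratin-associated protein probes instead, 15 of the 17 higher and 9 of the 11 lower genes kept a bound. It was then 3.26-fold for Scg5 and 37.3-fold for Xlr3b. Timp1, Ctsz, Rusc2 and Ina had none, as their lower genotype was not under that level on both arrays. Scripts were tested on simulated data.

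The genes named come from a rule that takes Ecrg4 and its neighbours, called genes whose brighter genotype exceeded background, the 8 largest dim ones per direction, called and brightest list members, further probes of named genes, and the 5 largest differences per direction that missed the threshold. The rule required separate genotypes of the brighter called genes, the largest dim ones and those that missed the threshold. Their separation is therefore no result. Every brighter called gene is named, and of the other classes only examples, picked with their values known. The comparison and the gene lists were chosen with earlier results of these data known.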

Additional observations from a re-analysis of the deposited data

How the results depend on the processing

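Against 153 calls as reported, 49 probes passed with a replicate block, 35 in a fit of the 4 compared arrays alone, 101 with array weights, 307 with a pseudocount of 16 and 402 with an intensity trend and robust prior. Leaving out 1 array gave 5 to 266. Deviations of same-numbered arrays from the genotype means correlated at 0.0156 between wild type and heterozygous. The values were 0.00999 between wild type and homozygous and -0.0759 between heterozygous and homozygous. These correlations run across probes, and whether same-numbered arrays were made together was not tested. All 49 and all 35 calls of those fits were among the 153, as were 131 of the 307 and 149 of the 402. Other scalings (median centring, quantile, cyclic loess) gave 202, 191 and 197. For Ecrg4 heterozygous minus wild type, the log2 difference was 1.44 without passing under the block (adjusted p = 0.0916), in the 4-array fit (0.137), with blanks filled (0.0697) and with array weights (0.0521). It was 1.21 to 1.67 over the compared arrays left out. Among the genes picked by the naming rule, no called difference changed sign under any alternative. Signs of the other called genes were followed only over the compared arrays left out. List medians near 0 did change sign, such as that of the hypoxia list (-0.23 and 0.37 without wild-type arrays 1 and 2). Zcchc12 and Xlr3b passed under all 17 alternatives, and Ctsc, Ilvbl and Ramp1 under 16. The alternatives without a homozygous array are the same fit as that of the 4 compared arrays, so they are not separate checks. With 40.1% to 42.4% of probes over background per array, differences among dim probes are the least certain.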
